A study of Mus musculus with 4 samples.

Results

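The replication-dependent histone genes were taken as the genes whose name on the array reads Hist followed by a cluster number and a histone class, H1, H2A, H2B, H3 or H4. Of 55681 non-control probes, 54 carried such a name, and they stood for 49 of 47818 named features. They comprised 6 H1, 14 H2A, 12 H2B, 8 H3 and 9 H4 genes, of which 36 lie in the large Hist1 cluster on chromosome 13, 9 in Hist2 on chromosome 3, 3 in Hist3 on chromosome 11 and 1, Hist4h4, on chromosome 6. The cells were adipocyte progenitors, which give rise to fat cells. They had been isolated by FACS from subcutaneous fat of male FVB mice aged 4 weeks and were lysed at once, with no culture and no treatment. The groups were wild-type and Adamts1 transgenic, with 2 samples each, and every sample was hybridised to its own single-colour Agilent array. Adamts1 encodes a secreted metalloprotease, and no label says which promoter controls the transgene or where it is expressed.

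Replication-dependent histones package newly copied DNA, and their intronless genes are transcribed mainly while a cell is in S phase. H2A, H2B, H3 and H4 form the core of the nucleosome, and H1 binds the linker DNA between nucleosomes. Their mRNAs end in a conserved stem-loop, bound by the protein Slbp, in place of the poly(A) tail of other mRNAs, and they are degraded when DNA synthesis stops. Replacement variants such as H3.3, by contrast, are made throughout the cell cycle from polyadenylated mRNAs. Labelling of the kind used here, with the Agilent low-input single-colour kit, primes from poly(A) tails, so that signal from these genes depends on transcripts with a tail or on internal priming. What each histone probe matches therefore matters to its value, and probe sequences are given before the measurements.

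Of the 54 probes, each 60 bases long, 24 lay within coding sequence, 6 ran across the start codon, 8 held all or part of the 16-base stem-loop that ends the mature transcript, and 16 held neither a recognised coding stretch nor the stem-loop. A set of 7 probes for different H2A genes covered the end of the coding sequence and ran to the stop codon or just past it. They are shown because near-identical probes can bind the same transcripts. Every member shared at least 29 bases in a row with the Hist1h2ah probe, and the run shared with it is in capitals. Coordinates are those of the array files on mouse build mm9, and sequences read 5′ to 3′.
Hist1h2ah, chr13:22127035-22127094, minus strand: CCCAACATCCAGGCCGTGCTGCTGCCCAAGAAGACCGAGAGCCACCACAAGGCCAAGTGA
Hist1h2af, chr13:23626113-23626172, plus strand: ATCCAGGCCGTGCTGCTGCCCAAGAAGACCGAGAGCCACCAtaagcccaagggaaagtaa
Hist1h2ag, chr13:23666685-23726365, plus strand: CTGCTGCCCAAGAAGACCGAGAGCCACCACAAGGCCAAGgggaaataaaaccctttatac
Hist1h2ak, chr13:21845304-21845363, minus strand: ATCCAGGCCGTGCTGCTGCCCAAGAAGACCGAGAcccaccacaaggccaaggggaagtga
Hist1h2an, chr13:21878695-21878754, minus strand: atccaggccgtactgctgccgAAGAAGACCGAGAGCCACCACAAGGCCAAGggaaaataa
Hist2h2aa2, chr3:96049837-96049896, plus strand: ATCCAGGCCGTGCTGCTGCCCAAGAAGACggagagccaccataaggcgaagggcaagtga
Hist2h2ac, chr3:96024378-96024437, minus strand: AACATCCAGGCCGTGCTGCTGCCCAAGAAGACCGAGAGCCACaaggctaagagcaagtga
The longest run in common with Hist1h2ah was 41 bases for Hist1h2af, 39 for Hist1h2ag, 34 for Hist1h2ak, 30 for Hist1h2an, 29 for Hist2h2aa2 and 42 for Hist2h2ac. The file gives the Hist1h2ag probe a span far longer than the probe itself. RefSeq on build GRCm38.p6 puts the start region of Hist1h2ag on the minus strand, at chr13:22042900-22043199. The printed place of this probe is therefore not certain. The variant gene H2afj, which also has a probe on the array, shared at least 20 bases with 5 of the 7 probes. By the file's coordinates the Hist2h2aa2 probe lies just before the Hist2h2aa1 probe on the plus strand. RefSeq puts the start region of Hist2h2aa2 on the minus strand and that of Hist2h2aa1 on the plus strand. Whether these 2 probes read the same transcript was not tested. In all, 16 histone probes fell into 4 families that share 20 or more bases, and values within a family are not independent.

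The probes for Hist1h1b, Hist1h2ba and Hist1h3c shared no 20 bases with a non-histone probe and are shown because these genes had the 3 smallest p-values among the histones. The Hist1h3c probe runs across the start codon and the other 2 lie in coding sequence.
Hist1h1b, chr13:21871923-21871982, minus strand: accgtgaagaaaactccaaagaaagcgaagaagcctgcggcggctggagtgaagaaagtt
Hist1h2ba, chr13:24025811-24025870, minus strand: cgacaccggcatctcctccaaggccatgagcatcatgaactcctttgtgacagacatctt
Hist1h3c, chr13:23837328-23837387, minus strand: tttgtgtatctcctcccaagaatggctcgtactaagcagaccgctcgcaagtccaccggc
The stem-loop was complete in 6 probes, in capitals in these 30-base stretches, which are shown because the mature transcript ends a few bases after it.
Hist1h3a, within chr13:23853756-23853815, minus strand: aattaaccaaaGGCTCTTTTCAGAGCCaca
Hist1h3g, within chr13:23627719-23627778, plus strand: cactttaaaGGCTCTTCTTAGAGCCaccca
Hist1h3i, within chr13:21874784-21874843, minus strand: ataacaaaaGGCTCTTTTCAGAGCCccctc
Hist1h4m, within chr13:21903960-21904019, plus strand: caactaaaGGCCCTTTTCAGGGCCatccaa
Hist2h2aa1, within chr3:96049949-96050008, plus strand: taaaaaGGCTCTTTTCAGAGCCacccactg
Hist2h2bb, within chr3:96074056-96074115, plus strand: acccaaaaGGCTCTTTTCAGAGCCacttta
Of these 6 probes, 5 ended 3 to 6 bases after the stem-loop, and the Hist2h2aa1 probe went on for 38 bases beyond it.

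Levels are log2 signals relative to the 75th percentile of the same array, so that a level of 0 equals that percentile, and a difference is the transgenic mean minus the wild-type mean. The slide and the scan were the same for all 4 arrays. Between 47.0% and 57.0% of spots were well above background, with wild-type array 1 the lowest, and arrays correlated at 0.984 within the wild-type pair, 0.994 within the transgenic pair and 0.977 to 0.984 across groups over 24518 features tested. Adamts1 read 6.65 and 6.73 in the wild-type and 6.77 and 6.82 in the transgenic samples, a difference of 0.11 ± 0.09 (SE, n = 2 per group, adjusted p = 0.573, limma), so this probe did not check the genotype labels, which are used as given. The progenitor marker Pdgfra read 5.23 and 5.32 against 5.28 and 5.42, and all 13 progenitor markers were above background on every array. The median difference of these 13 markers was -0.32, with 3 of them positive. Whether the samples are separate animals or pools is not stated, so p-values reflect no more than how these 4 samples vary. The smallest p that an exact permutation test allows with 2 arrays against 2 is 0.333.

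The transgenic and wild-type samples were compared to ask how histone transcript signal differs between progenitors of the 2 genotypes. Histone H1 gene Hist1h1b, the H2A genes Hist1h2ag, Hist1h2an and Hist1h2ab, and the H3 gene Hist1h3f stood 0.93 to 1.29 higher on the log2 scale on the transgenic arrays, but no histone gene passed the test. Hist1h3f was not above background on wild-type array 1 and entered the test through the transgenic arrays alone. Of 49 genes, 36 were tested: 30 were above background on every array of both groups and 6 passed through the transgenic arrays alone. In limma, 0 were called higher and 0 lower at an adjusted p under 0.05, where 1.73% of all features were called, 0.967% higher and 0.759% lower. Adjusted p-values ran from 0.114 to 0.996. At an unadjusted p under 0.05, 8 histone genes were higher and 0 lower, that is 22.2% of the tested genes against 9.25% of all features higher and 9.76% lower. Of these 8, 4 were measured by probes of the H2A family that shares sequence. Outside that family 4 of 29 tested genes (13.8%) were higher at that level.

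The differences leaned to the transgenic side without reaching the threshold. They were positive for 28 of 36 tested genes (77.8%, against 47.8% of all features), and ranged from -0.50 to 1.29. The median was 0.28 over the tested genes, against -0.02 over all features tested. Over the 30 genes above background on every array it was 0.29. Over all 49 genes, tested or not, the median was 0.28, against -0.2 over all 47818 features with no filter. With normexp background correction the median over all 49 genes was -0.01. With each family of probes that share sequence counted once, the median over the tested genes was 0.21. Both transgenic arrays lay above both wild-type arrays for 17 of 36 genes (47.2%, against 24.5% of all features). Both lay below for 2, Hist1h4i and Hist3h2a (5.56%, against 28.6%), and for the other 17 genes the groups overlapped. Outside the H2A family that shares sequence, both transgenic arrays lay above for 10 of 29 tested genes (34.5%). The median difference of those 29 genes was 0.19. A bulk sample cannot tell a larger number of cells that make histone mRNA from more of it per cell.

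**Figure D1:**
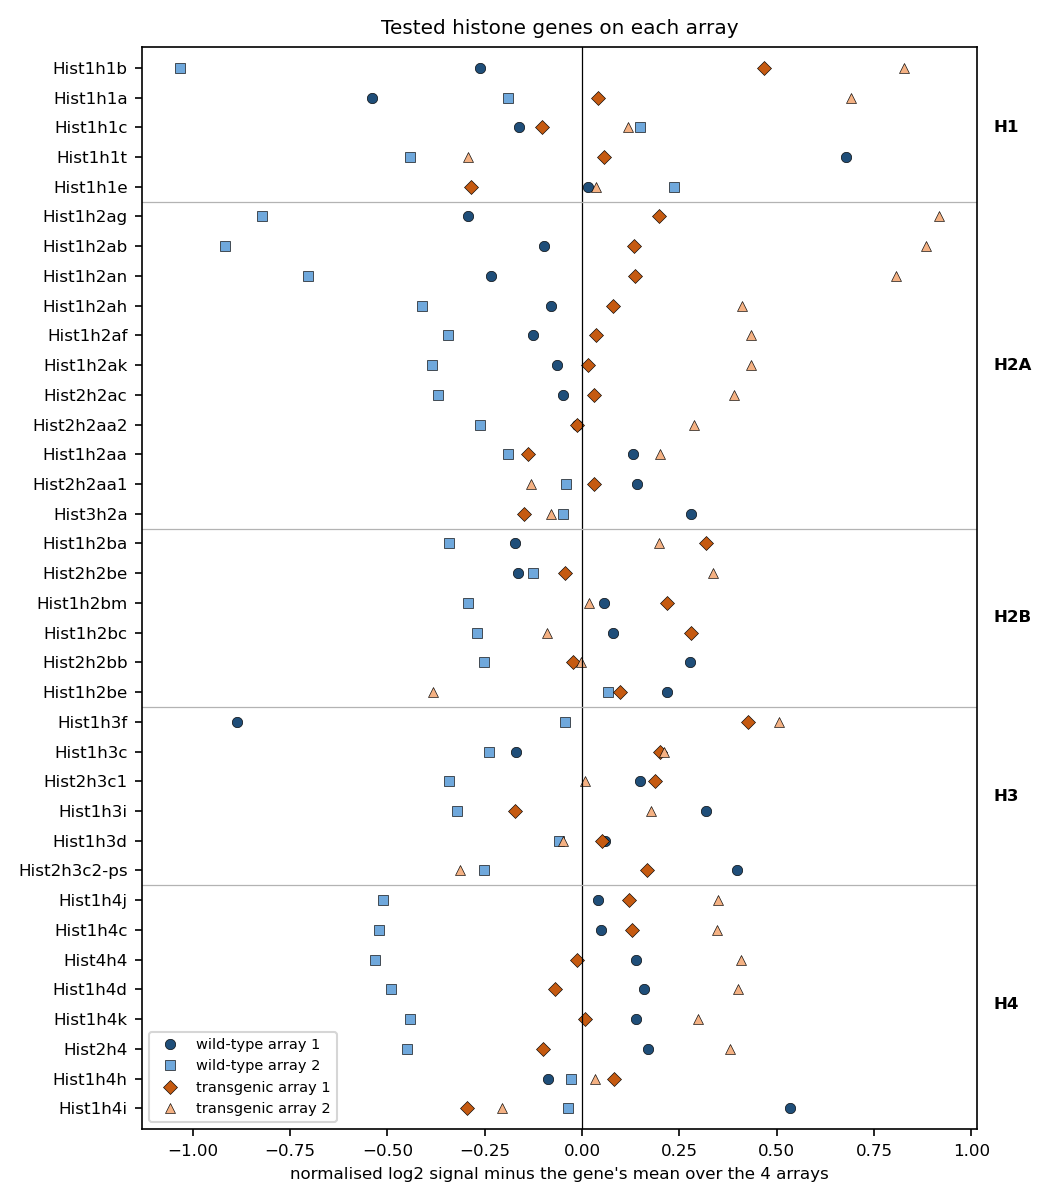
Each row is 1 of the 36 tested histone genes, grouped by class, and each point is 1 array, placed on the x axis by its normalised log2 signal minus the gene's mean over the 4 arrays. Wild-type array 2 is lowest for 25 genes and transgenic array 2 is highest for 20, while most H4 genes show wild-type array 1 close to or above transgenic array 1.

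The arrays did not split cleanly by genotype. Transgenic array 2 was the highest of the 4 for 20 of 36 tested histone genes, against 21.8% of all features, and wild-type array 2 was the lowest for 25 of 36, against 23.4%. The median deviation from a gene's own mean was 0.04 and -0.31 for wild-type arrays 1 and 2 and 0.04 and 0.25 for the transgenic pair. Array 1 of each group thus had the same median at 2 decimals, and the groups stood apart in their second arrays. The distance between the wild-type arrays, with a median of 0.34 (array 1 minus array 2), exceeded the median difference between groups, and the transgenic arrays were 0.26 apart (array 2 minus array 1), while over all features these distances were 0.021 and 0.0033. Leaving out wild-type array 2 lowered the median of the tested genes to 0.10, and leaving out transgenic array 2 lowered it to 0.19. It was 0.44 when wild-type array 1 was left out and 0.45 when transgenic array 1 was. Without wild-type array 2, Hist1h3f was called higher and Hist1h4i lower, 1 gene each way, in a fit that called 5.91% of features higher and 9.8% lower. In that fit the wild-type value of Hist1h3f was that of array 1, which was not above background.

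Among the linker histones, Hist1h1b (H1f5), a somatic H1 of dividing cells, had the smallest p of all histone genes. It read -1.19 and -1.96 on wild-type arrays 1 and 2 and -0.46 and -0.10 on transgenic arrays 1 and 2. The groups did not overlap, and the wild-type arrays were further apart than the transgenic ones. The difference was 1.29 ± 0.30 (SE, n = 2 per group, 2.45-fold, 95% interval 0.55 to 2.04, adjusted p = 0.114, limma), and leaving out wild-type array 1 turned it into a call (1.68, adjusted p = 0.0343), the only histone call in that fit, where 1.93% of features were called higher. Hist1h1a (H1f1) read -3.84 and -3.49 against -3.26 and -2.61 and was not above background on wild-type array 1, with a difference of 0.73 ± 0.33 (adjusted p = 0.310). The 95% interval of Hist1h1a, -0.10 to 1.56, included 0, as did those of the remaining tested H1 genes. The somatic H1 gene Hist1h1c differed by 0.02 (95% interval -0.35 to 0.38), Hist1h1e by -0.25 (-0.64 to 0.13) and the testis H1 gene Hist1h1t by -0.24 (-1.43 to 0.95). Hist1h1t was above background on neither wild-type array and was tested through the transgenic arrays alone. Hist1h1d was above background on no array. The median of the 5 tested H1 genes was 0.02.

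Of 14 H2A genes 11 were tested, and their median difference was 0.45. Both transgenic arrays lay above both wild-type arrays for 8 (72.7%, against 24.5% of all features). In limma, 5 were higher at an unadjusted p under 0.05 (45.5%, against 9.25% of all features). The family of 7 probes that share sequence supplied 7 of those 8 genes and 4 of those 5. Hist1h2ag read 4.33 and 3.80 on the wild-type arrays and 4.82 and 5.54 on the transgenic ones, a difference of 1.11 ± 0.28 (SE, n = 2 per group, adjusted p = 0.139). Hist1h2an read 4.17 and 3.70 against 4.54 and 5.21, a difference of 0.94 ± 0.26 (adjusted p = 0.155), and 0.61 without transgenic array 2. For both genes transgenic array 2 stood well above the rest and wild-type array 2 below. Hist1h2ah, whose probe is the reference of the sequences printed above, read 5.74 and 5.41 against 5.90 and 6.23, a difference of 0.49 ± 0.16 (adjusted p = 0.206). The remaining 4 of the family, Hist1h2af, Hist1h2ak, Hist2h2ac and Hist2h2aa2, differed by 0.47, 0.45, 0.41 and 0.28, and Hist1h2af by 0.27 without transgenic array 2.

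All 7 probes of that family were above background on all arrays, and in all 7 the arrays stood in the same order, with wild-type array 2 lowest and transgenic array 2 highest. The differences ran from 0.28 to 1.11 with a median of 0.47, and the shared sequence means that these are not 7 separate observations. Transgenic array 2 exceeded transgenic array 1 by 0.30 to 0.72 in them, and wild-type array 1 exceeded wild-type array 2 by 0.22 to 0.53. The variant H2afj, which shares sequence with the family, read 5.95 and 5.67 against 5.99 and 6.27, a difference of 0.32 ± 0.15 (adjusted p = 0.314). How much of each signal comes from the named gene and how much from its near copies was not tested.

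Outside that family 7 H2A genes remained, of which 4 were tested, with a median of -0.02. Hist1h2ab, measured by a probe that reaches into the stem-loop, read 1.62 and 0.80 against 1.85 and 2.60, a difference of 1.01 ± 0.35 (adjusted p = 0.219), which was 0.60 without wild-type array 2 and 0.63 without transgenic array 2. Its groups did not overlap, but transgenic array 1 was closer to wild-type array 1 than to transgenic array 2. Hist3h2a read 1.50 and 1.17 against 1.07 and 1.14, lower on both transgenic arrays, with a difference of -0.23 ± 0.14 (adjusted p = 0.426). Hist2h2aa1 differed by -0.10 and the testis gene Hist1h2aa by 0.06, both with overlapping groups. By the file's coordinates the Hist2h2aa1 probe lies next to the Hist2h2aa2 probe of the family, so these may not be separate genes. Hist1h2aa was not above background on wild-type array 1 and was tested through the transgenic arrays alone. Hist1h2ac, Hist1h2ae and Hist2h2ab were above background on no array.

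Among H2B genes only 6 of 12 were tested, with a median of 0.21. Hist1h2ba (H2bc1), known as the testis H2B, read 0.46 and 0.29 on the wild-type arrays and 0.95 and 0.83 on the transgenic ones. Its arrays lay close together within each group and the groups did not overlap, with a difference of 0.51 ± 0.12 (SE, n = 2 per group, adjusted p = 0.125). Hist2h2be, which was not above background on wild-type array 1, read -4.06 and -4.02 against -3.94 and -3.56, a difference of 0.29 ± 0.29 (adjusted p = 0.632). The other 4 overlapped between groups, from Hist1h2be at -0.28 and Hist2h2bb at -0.02 to Hist1h2bc at 0.19 and Hist1h2bm at 0.24. Of the 6 that were not tested, 5 were above background on no array. The pseudogene Hist3h2bb-ps was above background on transgenic array 1 alone, at -1.05, against -5.56, -6.89 and -6.32 on wild-type arrays 1 and 2 and transgenic array 2.

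The tested H3 genes had differences between -0.14 and 0.19 apart from a pair whose probes share sequence across the start codon. Hist1h3c (H3c3) read 0.96 and 0.89 against 1.33 and 1.34, and the arrays of a group agreed to within 0.07. The difference was 0.41 ± 0.10 (SE, n = 2 per group, 1.33-fold, adjusted p = 0.125). Hist1h3f read -5.33 and -4.49 against -4.02 and -3.94 and was not above background on wild-type array 1, with a difference of 0.93 ± 0.40 (adjusted p = 0.289). Hist1h3d read 5.73 and 5.61 against 5.72 and 5.62, and its difference of 0.00 had a 95% interval from -0.23 to 0.24. Hist2h3c1 differed by 0.19, Hist1h3i by 0.01 and the gene labelled Hist2h3c2-ps by -0.14, all with overlapping groups. Hist1h3i was not above background on wild-type array 1 and was tested through the transgenic arrays alone. Hist1h3a and Hist1h3g were above background on no array. The class median was 0.10.

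The H4 genes encode the same protein from many copies. Of 9 genes 8 were tested, with a median of 0.32, and in 6 of them wild-type array 2 was lowest and transgenic array 2 highest. Hist1h4j read -0.56 and -1.11 against -0.48 and -0.25, a difference of 0.47 ± 0.23 (adjusted p = 0.334). Hist1h4c read -1.64 and -2.21 against -1.56 and -1.34, a difference of 0.47 ± 0.25 (adjusted p = 0.371). In both, the step from wild-type array 1 to transgenic array 1 was small beside the gap within the wild-type pair. Hist4h4, Hist1h4d, Hist1h4k and Hist2h4 differed by 0.39, 0.33, 0.30 and 0.28, and in these 4 wild-type array 1 was above transgenic array 1, so the groups overlapped. Hist1h4h differed by 0.12. Over the class, the wild-type arrays were 0.57 apart at the median. Hist1h4m was not tested, as it was above background on transgenic array 2 alone.

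Among tested histone genes Hist1h4i had the most negative difference, and its 2 probes gave values of opposite sign. The probe with the higher signal, which held neither coding sequence nor the stem-loop, read 0.36 and -0.21 against -0.47 and -0.38, a difference of -0.50 ± 0.22 (SE, n = 2 per group, adjusted p = 0.292, limma), and it shared 20 bases with a probe for Galns, another gene. The probe across the start codon read -3.63 and -3.00 against -2.48 and -1.98, with a difference of 1.08 (adjusted p = 0.170 when each probe was tested alone). That probe was not above background on wild-type array 1 and could be tested through the transgenic arrays alone, where it is higher. Both probes of Hist1h2ak gave positive values, 0.45 for the probe at the end of the coding sequence and 1.11 for a probe that begins at the start codon (adjusted p = 0.125 alone). The 2 probes of Hist1h4k gave 0.30 and 0.39. Hist2h4 and Hist4h4 each had a further probe that was above background on no array.

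**Figure D2:**
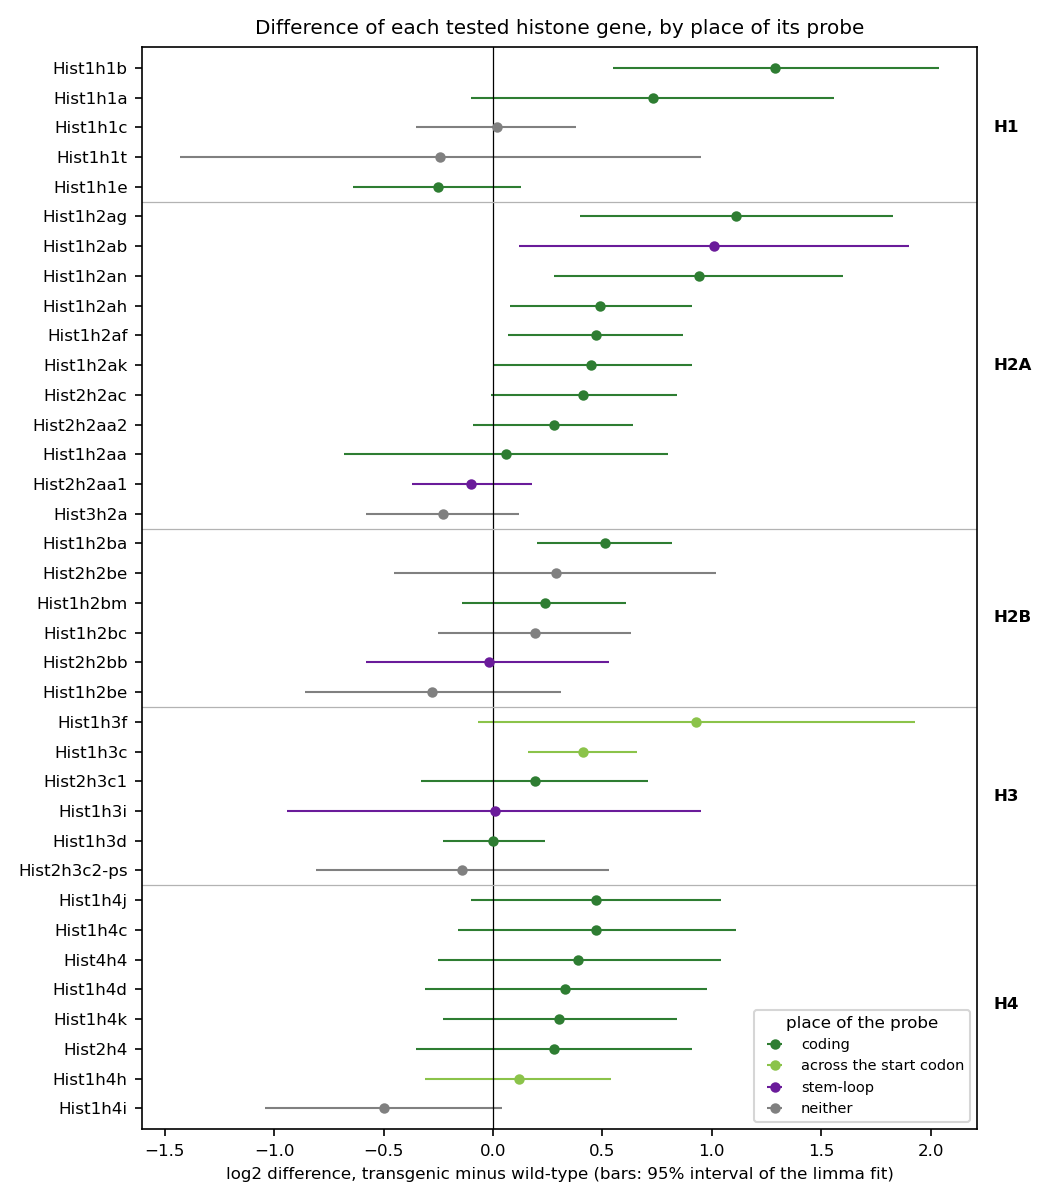
Points give the log2 difference, transgenic minus wild-type, of each tested histone gene by class, and bars its 95% interval from the limma fit; colour marks the place of the probe. Hist1h1b lies furthest to the right at 1.29 and Hist1h4i furthest to the left at -0.50, and the positive differences sit mostly on coding probes.

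Detection differed with the place of the probe. Coding probes were above background on all 4 arrays in 21 of 24 cases, probes across the start codon in 2 of 6, stem-loop probes in 3 of 8 and the remaining probes in 6 of 16. The median GC content was 55.9% for coding probes, 51.6% across the start codon, 45.0% for stem-loop probes and 38.4% for the rest, so place and base composition cannot be told apart here. Of the 22 genes represented by a coding probe 21 were tested, 20 had a positive difference, and the median was 0.41. Without the H2A family that shares the end of its coding sequence, 14 such genes had a median of 0.32. The 8 tested genes whose probe held neither coding sequence nor the stem-loop had a median of -0.18, with 3 positive. The 4 tested genes on stem-loop probes had a median of -0.01.

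**Figure D3:**
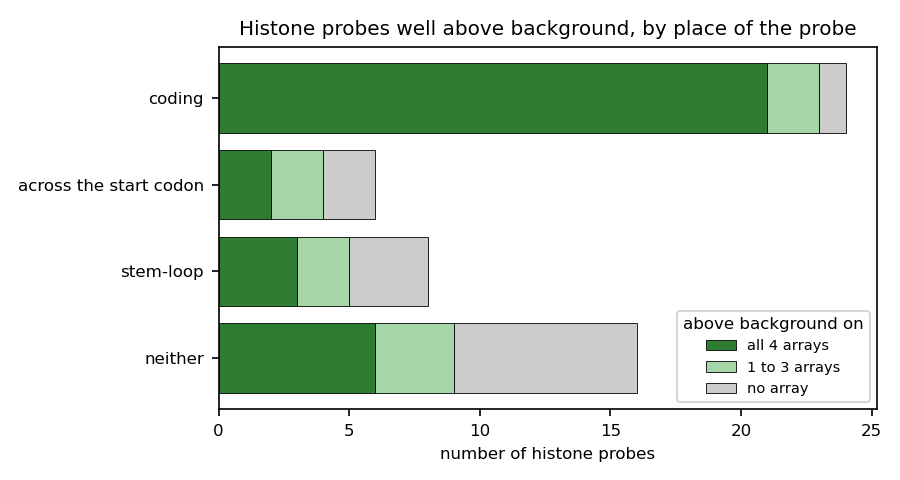
Bars count the 54 histone probes by place, divided into those well above background on all 4 arrays, on 1 to 3 arrays and on no array. Coding probes were detected on all arrays in 21 of 24 cases, against 6 of 16 among probes with neither coding sequence nor stem-loop.

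The start regions of these genes carry the letters known from histone promoters. RefSeq sequences on build GRCm38.p6, covering 250 bases before to 50 after each gene's start, were matched for 43 of the 49 genes and searched on both strands. The octamer ATTTGCAT was found in 7 of 14 H2A and 6 of 9 H2B promoters and in 0 of the H1, H3 and H4 promoters, against 1.97% of 27025 genes. The stretches of Hist1h2aa and Hist1h2ba overlap, as do those of Hist1h2ae and Hist1h2bg. An octamer in such an overlap was counted in both classes. CCAAT was present in 37 of 43, among them 2 of 8 H4 promoters, against 41.1% of all genes. TATAAA was present in 26 of 43 (60.5%, against 15.7%). AAACACA, known from H1 promoters, was present in 5 of 6 H1 promoters, against 8.22% of all genes. A match is a string of letters and not a shown binding site. Tested genes with the octamer had a median difference of 0.24 (9 genes) and those without it 0.30 (23 genes). Promoters are shown for Hist1h1b and Hist1h2ba, which, of the 3 histone genes with the smallest p-values, had probes outside the families that share sequence. The motifs are in capitals, on either strand.
Hist1h1b, chr13:21780576-21780875, minus strand: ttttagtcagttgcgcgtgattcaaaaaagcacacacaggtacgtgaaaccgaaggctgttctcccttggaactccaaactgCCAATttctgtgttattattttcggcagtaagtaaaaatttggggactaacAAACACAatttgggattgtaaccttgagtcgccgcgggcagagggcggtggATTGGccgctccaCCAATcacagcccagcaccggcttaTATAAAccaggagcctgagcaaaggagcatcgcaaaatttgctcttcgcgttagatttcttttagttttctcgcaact
Hist1h2ba, chr13:23934107-23934406, minus strand: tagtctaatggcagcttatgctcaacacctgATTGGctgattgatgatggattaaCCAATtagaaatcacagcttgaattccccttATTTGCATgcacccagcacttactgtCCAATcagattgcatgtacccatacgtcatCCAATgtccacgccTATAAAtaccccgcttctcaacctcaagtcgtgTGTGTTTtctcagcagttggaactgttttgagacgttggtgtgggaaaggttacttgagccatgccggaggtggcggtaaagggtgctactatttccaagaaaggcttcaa

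Lists of genes that make, process and deposit histones were measured on the same arrays, where 47.8% of all features tested had a positive difference. In the list for histone mRNA processing and transcription 27 of 30 genes were tested, 0 were called higher and 0 lower in limma, 17 were positive and the median was 0.08. Slbp, the stem-loop binding protein, read 0.41 and 0.67 against 0.86 and 0.79, higher on both transgenic arrays, with a difference of 0.29 ± 0.13 (adjusted p = 0.313). Lsm11, a subunit of the U7 particle that cleaves histone mRNA, differed by 0.52 (adjusted p = 0.258), and the cyclin Ccne1 by 0.39 (adjusted p = 0.273). Npat, the coactivator of histone transcription, was above background on no array.

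Replacement variants were near 0 for the most part. Of 14 in the list 12 were tested, 0 were called in either direction, 8 were positive and the median was 0.04. H3f3a and H3f3b, the genes of H3.3, differed by 0.02 and 0.03, and H2afz, the gene of H2A.Z, by 0.16 (adjusted p = 0.392). The linker variant H1f0 read -1.38 and -1.83 against -0.96 and -0.70, apart between groups, with a difference of 0.77 ± 0.22 (adjusted p = 0.161). The centromeric H3 variant Cenpa read -0.85 and -1.54 against -0.32 and 0.68, a difference of 1.37 ± 0.40 (adjusted p = 0.164). Both genes were lowest on wild-type array 2 and highest on transgenic array 2.

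Chaperones carry histones to DNA. Of 25 in the list 24 were tested, 0 were called in either direction, 15 were positive and the median was 0.08. Chaf1b, a subunit of the chromatin assembly factor that acts behind the replication fork, read -0.11 and -0.13 against 0.63 and 0.93, with a difference of 0.90 ± 0.14 and the smallest adjusted p of the list, 0.0560. Its partner Chaf1a differed by 0.73 (adjusted p = 0.169) and the acetyltransferase Hat1, which modifies new H4, by 0.35 (adjusted p = 0.188). Asf1b, a chaperone of H3 and H4 named after its value was seen, had the widest difference of the list, 1.07 ± 0.36 (adjusted p = 0.206).

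Cell cycle genes leaned to the transgenic side as well. Of all features tested, 47.8% had a positive difference. In the S phase list 30 of 30 genes were tested, 0 were called in either direction, 27 were positive and the median was 0.35, with 1 gene that passed through the transgenic arrays alone. In this list were Pole, the catalytic subunit of a replicative polymerase, at 0.90 (adjusted p = 0.0654) and the clamp Pcna at 0.20 (adjusted p = 0.413). In the mitosis list 22 of 25 were tested, 0 were called in either direction, all 22 were positive and the median was 1.27, with 3 genes that passed through the transgenic arrays alone, and with the topoisomerase Top2a at 1.73 (adjusted p = 0.0765) and the proliferation marker Mki67 at 1.30 (adjusted p = 0.141). Transgenic array 2 exceeded transgenic array 1 in all 22 mitosis genes tested, in 16 of 30 S phase genes and in 26 of 36 histone genes. The median deviation from a gene's own mean in the mitosis list was -0.34 and -0.90 on the wild-type arrays and 0.16 and 1.10 on the transgenic ones, and in the S phase list -0.02, -0.34, 0.15 and 0.17. The order of the arrays in the mitosis and S phase lists was the same as in the H2A genes. The H2A medians were -0.07, -0.37, 0.03 and 0.41, and 7 of the 11 H2A genes tested belong to the family that shares sequence. In the H4 genes, at 0.14, -0.47, -0.0 and 0.35, wild-type array 1 stood above transgenic array 1. Over all 36 tested histone genes these 2 arrays had the same median at 2 decimals.

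**Figure D4:**
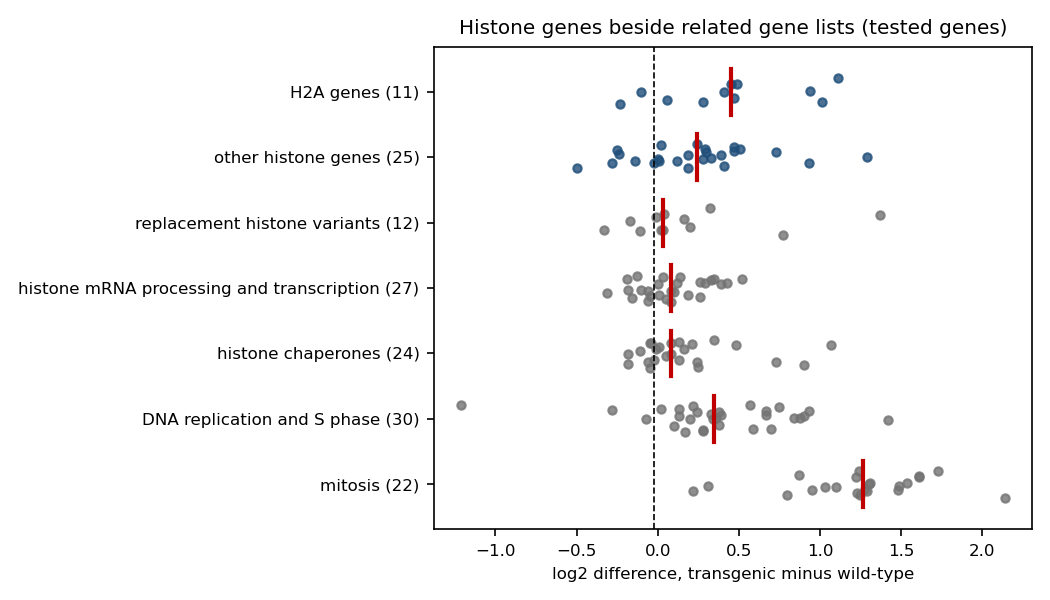
Each point is the log2 difference, transgenic minus wild-type, of 1 tested gene, with the number of genes in brackets; red bars mark list medians and the dashed line the median of all features tested, -0.02. H2A genes have a median of 0.45, beside 0.35 for S phase genes, 1.27 for mitosis genes and 0.04 for replacement variants.

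Markers of other cell types also differed between the groups, and their part in the histone values was not tested. Over all features tested, 0.967% were called higher and 0.759% lower. Both transgenic arrays lay above both wild-type arrays for 24.5% of these features and below for 28.6%. Of 14 macrophage markers tested, 9 were called higher and 0 lower, among them Cd74 at 3.21 (adjusted p = 0.0128), and 6 passed through the transgenic arrays alone. Their median difference was 2.07. Their summed signal, as log2, was 5.82 to 5.85 on the wild-type and 5.98 to 6.03 on the transgenic arrays, and Itgam, at 5.56 and 5.60 against 5.56 and 5.47, held most of it. Of 11 tested endothelial markers, 6 of them through the transgenic arrays alone, 1 was called higher (Egfl7). The median difference was 1.74, with summed signals of 4.2 to 4.5 and 4.2 to 4.27. Both transgenic arrays lay above both wild-type arrays for 7 of these markers and below for 1, Tek. Tek read 3.04 and 3.18 against 2.55 and 2.64, a difference of -0.51. Of 8 tested lymphocyte markers, 3 of them through the transgenic arrays alone, 2 were called higher (Lck and Cd3d, the latter above background on neither wild-type array). The median difference of the 8 was 1.65, with summed signals of 2.99 to 3.64 and 2.85 to 3.07. Both transgenic arrays lay above both wild-type arrays for 6 of them and below for 1, Cd3e. Cd3e read 2.45 and 3.34 against 1.97 and 1.80, a difference of -1.01. Of 6 tested mature adipocyte markers, 2 of them through the transgenic arrays alone, 1 was called higher (Fabp4) and the median difference was 1.91, with summed signals of 4.34 to 4.54 and 6.59 to 6.70. Fabp4, at 4.24 and 4.48 against 6.55 and 6.65, held most of this signal. No erythroid marker of 4 tested was called in limma, and their summed signal was 1.30 to 2.28 on the wild-type and 2.03 to 3.28 on the transgenic arrays, lowest on wild-type array 2 and highest on transgenic array 2. Among the markers above background on no array were Erg, Lep, Alas2 and Epb4.2. Of the 13 progenitor markers 0 were called higher and 2 lower, Cd24a at -1.58 and Pi16 at -1.16, with summed signals of 12.17 to 12.48 and 11.90 to 11.92. Their median difference was -0.32, with both transgenic arrays below both wild-type arrays for 10 of the 13 and above for 2.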

How the data were processed

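The histone genes and the gene lists were chosen with earlier results of these data known. RNA was labelled with Cy3 by the low-input kit, per the labels. The spot intensity in the deposited scanner files is the processed, background-subtracted signal of Agilent Feature Extraction 10.7.3.1 on design 028005, with mm9 coordinates, per the file headers; the log2 values in the authors' deposited value table are of unstated making, correlated at 0.9998 to 1 with centred scanner values, had column medians of 0.193, -0.021, -0.045 and 0.019, and served as an alternative. Control and outlier spots were left out, spots of a probe averaged, and the array's 75th percentile of log2 signal subtracted. Each gene was represented by its brightest probe on average, and testing required signal well above background on both arrays of a group. The comparison used limma 3.58.1 with R 4.3.3 (intensity trend, 2-sided, Benjamini-Hochberg over all 24518 features, residual degrees of freedom 2, prior 3.34), with an adjusted p under 0.05 as the call. The SE had a median of 0.177. The number of arrays limits the precision. The fit was tested on simulated data. Coding sequence was recognised by short peptide tags typical of each class. Named genes were, besides histones, each list's called genes, its 3 smallest p-values and preset members; alternatives, listed in the closing section, changed scaling, background correction, filter, probe choice and arrays. The replicate numbers did not pair the samples (correlation of deviations 0.003). Symbols of the array design were matched to GRCm38.p6 RefSeq names. Some marker genes are not reported here by name.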

Additional observations from a re-analysis of the deposited data

How the results depend on the processing

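With all 4 arrays in the fit, 0 histone genes were called in either direction under all 12 alternatives, and the median difference of the tested histone genes stayed between 0.22 (normexp correction) and 0.36 (quantile normalization). Counting each probe family once, an alternative chosen after seeing the data, gave 0.21 for the tested and 0.19 for all 49 genes. The median over all 49 genes was -0.01 with normexp correction. The 8 histone genes with an unadjusted p under 0.05 kept their direction in every setting run for them. The count of all features called was 423, against 277 with normexp and quantile normalization, 694 with no filter, 774 with the replicate block and 0 without the intensity trend in limma, where 4124 had an unadjusted p under 0.05. The block, fitted on numbers that do not pair the samples, changed no histone call. When each array was left out in turn, assuming that the lone array of a group varies like the other group, the features called ranged from 90 to 3998, with 1295 without wild-type array 1, 3998 without wild-type array 2, 90 without transgenic array 1 and 114 without transgenic array 2. Histone genes called higher then ranged from 0 to 1 and lower from 0 to 1: Hist1h1b was called without wild-type array 1 (1.68, adjusted p = 0.0343), and Hist1h3f higher and Hist1h4i lower without wild-type array 2. The leave-one-out median ranged from 0.10 to 0.45 over tested and from 0.06 to 0.44 over all histone genes, lowest without wild-type array 2. The cause of these shifts was not tested. Signal over background limits what can be said of the 13 untested genes.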
